A study of Mus musculus with 10 samples.

Results

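The guanylate-binding proteins Gbp2, Gbp3, Gbp6 and Gbp7 were examined in the lungs of 2-week-old mice, across 4 control and 6 smoke-exposed animals. Of 6 listed members of the family (Gbp2, Gbp3, Gbp4, Gbp6, Gbp7 and Gbp9), these 4 had a probe set that the platform annotation assigned to 1 gene symbol, and Gbp4 and Gbp9 were not analysed here. The 4 genes were measured by 7 of the 45037 probe sets other than controls, and they are 4 of 18193 genes with such a probe set. The genes were chosen by their measured difference between smoke and control in these same arrays, so that difference is given as a description, with no test. All 10 mice were C57BL/6J, sex is unknown in the labels, and 1 Affymetrix Mouse 430 2.0 array was run per lung. The control mice were kept in filtered air, apart from the exposed animals. The smoke mice entered a cigarette smoke chamber with their mother at 1 day of age, for 1 hour daily in the first 7 days and 2 hours daily in the next 7, at a mean particulate load of 90 mg per cubic metre. The labels name no litter, batch or dam, so the p-values reflect only how these arrays vary, which may be partly technical, and mice that shared a mother cannot be told from others.

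Guanylate-binding proteins are large GTPases of the dynamin superfamily that cells make in quantity when exposed to interferon, most strongly interferon gamma. They assemble on the membranes of vacuoles that hold parasites or bacteria and on bacteria in the cytosol, and by damaging these surfaces they expose microbial molecules to the inflammasome sensors that trigger pyroptosis. Immune, endothelial and epithelial cells can all express them, so their level in whole lung sums over many cell types. In such bulk samples, fewer cells of a type and less RNA per cell cannot be told apart.

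The mouse family lies in a pair of gene clusters. In the RefSeq annotation of GRCm38.p6 the cluster on chromosome 3 runs Gbp5, Gbp7, Gbp3, Gbp2b, Gbp2 and the pseudogene Gbp2-ps, and the cluster on chromosome 5 runs Gbp8, Gbp9, Gbp4, Gbp10, Gbp6 and the pseudogene Gbp11, with 0 other protein-coding genes between the first and the last of either. The measured members therefore come from both clusters, with Gbp2, Gbp3 and Gbp7 on chromosome 3 and Gbp6 on chromosome 5. Their neighbours Gbp2b and Gbp8 were also measured and are given below. Neighbouring members are close in sequence, and a probe set can take up signal from a near-identical copy, which these data cannot separate; the suffix of the Gbp2 probe set 1435906_x_at marks probes that may also match other transcripts.

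The promoters of the chromosome 3 members are shown because interferon acts on these genes through short elements next to the start of transcription. A search of the 250 bases before the start was made for the core of the interferon-stimulated response element, GAAANNGAAA, which reads TTTCNNTTTC on the other strand, and for the gamma-activated site, TTCNNNGAA, on both strands; the 2 patterns do not share a match in the windows printed here. The windows are RefSeq promoters of GRCm38.p6, plus strand, with matches in capitals, at chr3:142620413-142620662 for Gbp2, chr3:142559794-142560043 for Gbp3, chr3:142530086-142530335 for Gbp7 and chr3:142594597-142594846 for Gbp2b.
Gbp2: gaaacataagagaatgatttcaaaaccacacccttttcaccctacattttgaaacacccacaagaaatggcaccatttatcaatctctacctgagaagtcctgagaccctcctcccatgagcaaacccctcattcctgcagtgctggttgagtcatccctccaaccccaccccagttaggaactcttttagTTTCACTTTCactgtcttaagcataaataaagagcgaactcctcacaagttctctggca
Gbp3: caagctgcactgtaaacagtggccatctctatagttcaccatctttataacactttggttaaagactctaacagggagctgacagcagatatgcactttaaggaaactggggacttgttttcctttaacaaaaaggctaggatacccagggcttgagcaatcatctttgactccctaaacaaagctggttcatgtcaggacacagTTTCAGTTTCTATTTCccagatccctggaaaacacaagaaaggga
Gbp7: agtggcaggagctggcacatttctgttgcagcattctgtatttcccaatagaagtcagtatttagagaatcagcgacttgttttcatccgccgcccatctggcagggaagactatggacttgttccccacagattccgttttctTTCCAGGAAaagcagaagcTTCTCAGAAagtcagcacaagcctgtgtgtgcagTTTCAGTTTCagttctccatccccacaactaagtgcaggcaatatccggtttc
Gbp2b: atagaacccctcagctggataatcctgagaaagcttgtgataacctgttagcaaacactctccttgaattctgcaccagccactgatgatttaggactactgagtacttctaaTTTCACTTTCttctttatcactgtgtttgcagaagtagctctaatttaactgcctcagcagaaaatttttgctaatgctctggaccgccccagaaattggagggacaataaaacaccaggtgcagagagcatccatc

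Each of these windows holds the interferon response core. In Gbp2 the match, TTTCACTTTC, lies 59 to 50 bases before the start. In Gbp3 there are 2 overlapping matches between 45 and 30 bases before the start, and a second annotated Gbp3 start has 0 matches in its window. In Gbp7 the core, TTTCAGTTTC, lies 53 to 44 bases before the start, and 2 gamma-activated sites lie upstream of it, TTCCAGGAA at 106 to 98 bases and TTCTCAGAA at 87 to 79 bases. Gbp2b carries the same letters as Gbp2, TTTCACTTTC, but farther out, at 137 to 128 bases before the start. Among all 32851 windows of the same length, 2.98% hold the response core and 7.02% hold a gamma-activated site. A match is a description of the letters and says nothing of binding in these lungs. The 4 windows were picked for the genes they precede, and the chromosome 5 members are named only.

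The deposited intensities were quantile normalized and compared on the log2 scale, where a difference of -1 is a halving of intensity; the sections that follow give normalized intensities per array and log2 group means ± SD. All 7 member probe sets were lower in smoke lungs, by a median log2 difference of -3.02, or 8.09-fold, and in every one the highest smoke array lay under the lowest control array. The differences ran from -3.83 for Gbp6 1438676_at to -1.99 for Gbp7 1434380_at, against a median of 0.02 over all tested probe sets. Over the whole table of 27022 tested probe sets, 0.54% were called lower at an adjusted p under 0.05 and 2.83% had every smoke array below every control array. The separation of 7 of 7 member probe sets follows from how the genes were chosen, and nothing is read from it. All 7 passed the filter on dim probe sets, and 0 of their 70 values lay at the floor.

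**Figure D1:**
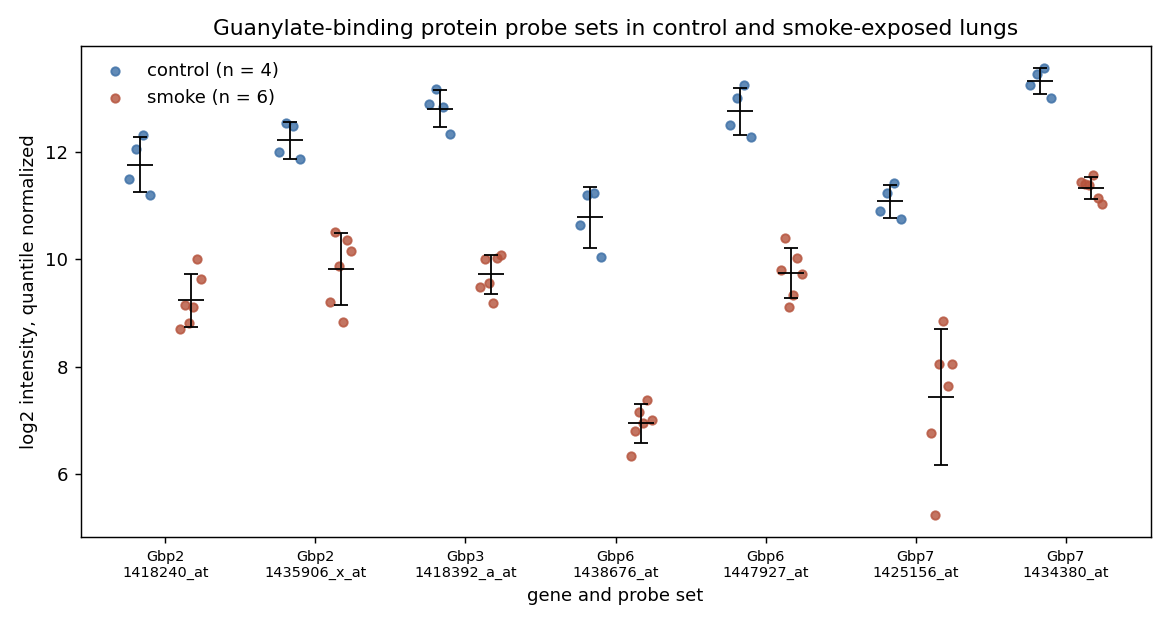
Log2 intensity after quantile normalization (vertical axis) of each member probe set (horizontal axis) in 4 control lungs (blue) and 6 smoke lungs (red); each point is 1 array, and the bars are the group mean and SD. In every probe set all smoke points lie under all control points, and Gbp7 1425156_at has the widest smoke group, from 5.25 to 8.86.

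Gbp6, the member on chromosome 5, is a guanylate-binding protein that mouse cells induce in response to interferon gamma. Its probe set 1438676_at read 1604 in control 1, 2361 in control 2, 2405 in control 3 and 1054 in control 4. In the smoke lungs it ran from 81.3 to 168, with a median of 127. All 6 smoke arrays lay far under all 4 controls, and the lowest control stood 6.27-fold above the highest smoke array. The log2 means were 10.78 ± 0.56 (SD, n = 4) and 6.95 ± 0.36 (SD, n = 6), a difference of -3.83 ± 0.28 (SE), or 14.2-fold.

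The other Gbp6 probe set, 1447927_at, read 5799, 8214, 9646 and 4979 in controls 1 to 4. Its smoke values ran from 553 to 1357, with a median of 873. Control and smoke arrays did not overlap here either, and the lowest control was 3.67-fold above the highest smoke array. Mean log2 levels were 12.76 ± 0.44 (SD, n = 4) and 9.74 ± 0.47 (SD, n = 6), and the difference was -3.02 ± 0.27 (SE), or 8.09-fold. Both Gbp6 probe sets thus moved the same way with different sizes of fold, and the smoke array that was highest differed between them, smoke 5 for the first and smoke 2 for the second.

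Gbp7, a member that in mice is needed for full resistance to intracellular bacteria and takes part in assembling the phagocyte oxidase on their vacuoles, also had 2 probe sets. Probe set 1425156_at read 1912, 2414, 2757 and 1726 in controls 1 to 4. Its smoke values ran from 38.0 to 466, with a median of 234. The controls were tightly grouped and the smoke arrays were not. Smoke 2 was the lowest and smoke 4 the highest, and the smoke SD of 1.27 was the widest of any member. The log2 means were 11.08 ± 0.31 (SD, n = 4) and 7.44 ± 1.27 (SD, n = 6), the difference -3.64 ± 0.56 (SE), or 12.4-fold, and the lowest control was 3.71-fold above the highest smoke array. Without smoke 1 and smoke 2, the arrays with the highest actin ratios, the difference was -2.95.

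The second Gbp7 probe set, 1434380_at, read 9713, 11200, 12022 and 8239 in controls 1 to 4. Its smoke values ran from 2084 to 3057, with a median of 2682. The smoke arrays lay closer together here than for any other member, with an SD of 0.20. The log2 means were 13.31 ± 0.24 (SD, n = 4) and 11.33 ± 0.20 (SD, n = 6), and the difference of -1.99 ± 0.15 (SE), or 3.97-fold, was the smallest among the members. The size of the Gbp7 difference therefore depends on the probe set, from 3.97-fold to 12.4-fold, while both keep the groups apart, by 2.70-fold between the lowest control and the highest smoke array in this one. The smoke arrays that set the wide spread of 1425156_at, smoke 2 and smoke 4, read 2707 and 3057 on this probe set and did not stand far apart.

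Gbp3, a gene of the chromosome 3 cluster whose joint deletion leaves mice susceptible to Toxoplasma, had 1 probe set, 1418392_a_at. It read 7564, 9201, 7293 and 5185 in controls 1 to 4. In smoke lungs it ran from 581 to 1082, with a median of 892. The gap between groups was wide relative to either group, and the lowest control was 4.79-fold above the highest smoke array. On the log2 scale the means were 12.81 ± 0.34 (SD, n = 4) and 9.72 ± 0.37 (SD, n = 6), a difference of -3.08 ± 0.23 (SE), or 8.47-fold.

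Gbp2, which carries a C-terminal lipid anchor that fixes it to membranes and is recruited to Toxoplasma vacuoles in mouse cells, had 2 probe sets. Probe set 1418240_at read 2900, 4243, 5061 and 2355 in controls 1 to 4. The smoke values ran from 417 to 1027, with a median of 563. Smoke 5 was the highest smoke array and came closest to the controls, 2.29-fold under the lowest of them, the narrowest gap among the members. The log2 means were 11.76 ± 0.50 (SD, n = 4) and 9.24 ± 0.50 (SD, n = 6), a difference of -2.52 ± 0.30 (SE), or 5.75-fold.

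Probe set 1435906_x_at, also for Gbp2, read 4078, 5920, 5748 and 3717 in controls 1 to 4. Its smoke values ran from 457 to 1456, with a median of 1039. The smoke group was wider than on the first probe set, and the groups again did not overlap, with 2.55-fold between the lowest control and the highest smoke array. Mean log2 levels were 12.22 ± 0.34 (SD, n = 4) and 9.82 ± 0.66 (SD, n = 6), and the difference was -2.40 ± 0.33 (SE), or 5.26-fold. The 2 Gbp2 probe sets gave folds within their errors of each other, unlike those of Gbp6 and Gbp7.

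Among the control lungs the members varied together. Control 4 was the lowest control in 7 of 7 probe sets, and control 3 was the highest in 5 and control 2 in the other 2. Controls 2 and 3 were above the group mean in 7 of 7. The 7 probe sets stand for 4 genes, and how many of all probe sets share this order was not counted. Control 4 also had the lowest actin ratio of the controls, 3.96 against 9.28 to 10.4, and its part in the order was not tested. The smoke lungs showed no such shared order, and the highest smoke array was smoke 2, smoke 4 or smoke 5 in 2 probe sets each and smoke 6 in 1. Smoke 5 was above the smoke mean in 6 of 7 probe sets and smoke 1 in 2 of 7. The control SD of the members ran from 0.24 to 0.56, with a median of 0.34 against 0.26 over all tested probe sets, and the smoke SD ran from 0.20 to 1.27, with a median of 0.47 against 0.50.

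**Figure D2:**
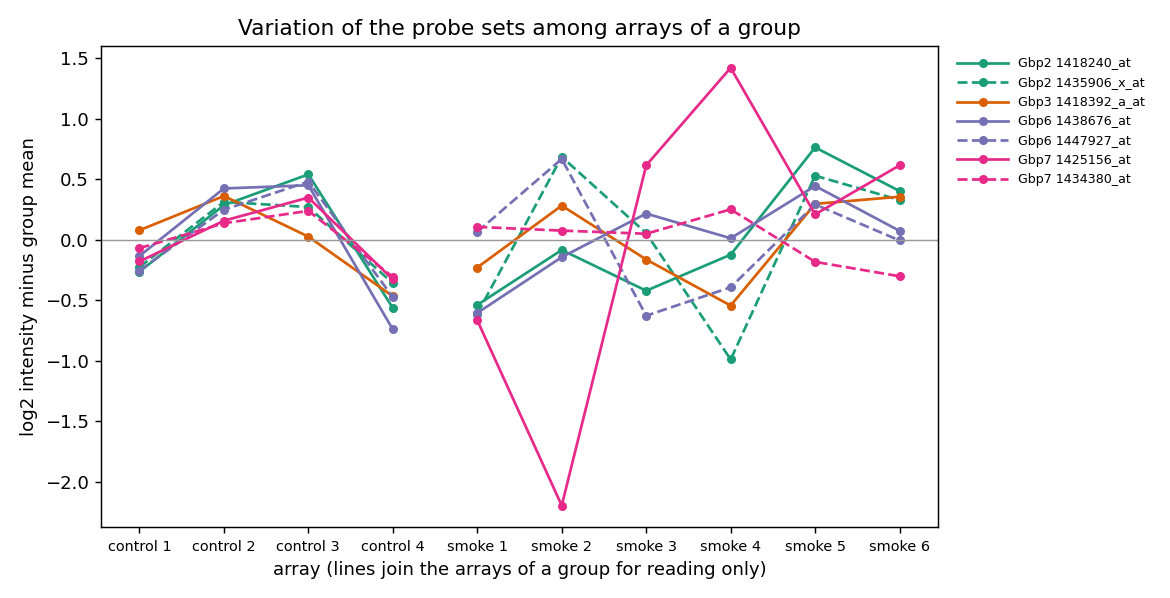
Log2 intensity minus the group mean (vertical axis) of the 7 member probe sets on each array (horizontal axis); a line joins the arrays of 1 group for reading only, and dashed lines are the second probe set of a gene. In the controls the lines run close together, with control 4 lowest in all 7, while the smoke lines cross, and Gbp7 1425156_at spans from smoke 2 to smoke 4.

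Arrays differed in RNA quality and in sex-linked signal, and the member values are given with both. The ratio of actin signal at the 3' end to that at the 5' end was 3.96 to 10.4 in controls, 31.6 and 29.4 in smoke 1 and smoke 2, 9.26 and 10.3 in smoke 3 and smoke 4, and 2.18 and 2.98 in smoke 5 and smoke 6. The same ratio for Gapdh was 4.82 to 5.89 in controls and 4.76, 9.16, 5.94, 3.68, 1.40 and 2.13 in smoke 1 to 6. Smoke 1 thus stood apart on actin but not on Gapdh, while smoke 2 was the highest array on Gapdh. Without smoke 1 and 2 the member median was -2.95, and without smoke 5 and 6 it was -3.16. Xist, the RNA that coats the inactive X chromosome, was high in controls 2 and 4 and in smoke 5 and 6. Smoke 5 and 6 also had the lowest actin ratios, so Xist level and RNA quality cannot be told apart among the smoke lungs. Within the Xist-high arrays, 2 control against 2 smoke, the member median was -2.70, with a range from -3.42 to -1.80, the latter for Gbp2 1418240_at. Within the Xist-low arrays, 2 control against 4 smoke, it was -3.20, from -4.12 to -1.95. Every member was lower in smoke in both subsets. That direction was fixed in advance, since every smoke array lay below every control array in each member probe set, and nothing is read from it.

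The measured relatives outside the chosen list, Gbp8 and Gbp2b, had smaller differences, and their groups overlapped. Gbp8, on chromosome 5, read 219, 366, 386 and 170 in controls 1 to 4 and from 112 to 306 in smoke lungs, with a median of 153. The groups overlapped, with 4 of 6 smoke arrays below every control, and the log2 means were 8.07 ± 0.57 (SD, n = 4) and 7.36 ± 0.52 (SD, n = 6). Its difference of -0.72 ± 0.33 (SE) did not pass in limma (adjusted p = 0.507). Gbp2b, the gene between Gbp3 and Gbp2, was too dim for the fit; it read 111, 63.1, 87.4 and 98.8 in controls 1 to 4 and from 17.4 to 191 in smoke lungs, with a median of 64.9. Smoke 1 was above every control and smoke 3 was the lowest of all arrays, and the log2 difference was -0.61 (exact two-sided permutation p = 0.371, where the smallest possible is 0.00476). A further probe set, annotated to both Gbp8 and Gbp4 and so not named as either, was at the floor in 4 arrays and had a difference of 0.68 (exact two-sided permutation p = 0.486). Gbp8 shared the control order of the members, with control 4 lowest and control 3 highest, and Gbp2b did not. The members were chosen by this difference and these genes were not. The gap between them therefore follows in part from the choice, and it was not tested. Nothing is read from it.

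Genes of the interferon pathway were counted from fixed lists, in the same limma fit with Benjamini-Hochberg adjustment over all tested probe sets; in this fit 0.702% of 13382 genes were lower and 0.0224% were higher, and the median gene differed by 0.06. Among the ligands, Ifng, which encodes interferon gamma, was too dim for the fit and had log2 means of 5.14 ± 0.67 (SD, n = 4) and 5.34 ± 1.15 (SD, n = 6), a difference of 0.20 (exact two-sided permutation p = 0.771). Of 8 listed ligands on the array 3 were bright enough for the fit, and of these 0 passed. Ifnb1, the interferon beta gene, had a difference of 0.49 ± 0.37 (SE; limma adjusted p = 0.678), Ifna2 of 0.74 ± 0.35 (adjusted p = 0.514) and Ifnz of 0.34 ± 0.69 (adjusted p = 0.887). At these low intensities no difference in ligand RNA was called, which does not show that there was none. The smallest difference that could have been called was not worked out.

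In the interferon gamma signalling list, 1 of 12 tested genes fell and 0 rose, with a median of -0.02. The gene that fell was Nlrc5, which drives transcription of MHC class I genes, at -2.78 ± 0.26 (SE; limma adjusted p = 0.000207). Irf1, a transcription factor induced by interferon gamma, had a difference of -0.37 ± 0.16 (adjusted p = 0.474), and Irf8, a myeloid relative, of 0.44 ± 0.22 (adjusted p = 0.522) on its brightest probe set and -1.05 on another. In the type I interferon signalling list 3 of 9 fell and 0 rose, with a median of -0.14. Usp18, which removes ISG15 and restrains the type I receptor, fell by 3.16 ± 0.19 on the log2 scale (SE; adjusted p = 1.14e-05). Irf9, the DNA-binding subunit of the complex that acts on the response element, fell by 1.46 ± 0.20 (adjusted p = 0.00381), and Irf7, which amplifies type I interferon, fell by 1.57 ± 0.22 (adjusted p = 0.00523). Stat2 did not pass, at -3.37 ± 0.73 (adjusted p = 0.0849), with all 6 smoke arrays below every control. Its lowest smoke value was at the floor, and another Stat2 probe set was at -0.34.

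The immunity-related GTPases are a second family of interferon-induced GTPases, which load onto the same vacuoles as the guanylate-binding proteins in mouse cells. In that list 6 of 7 tested genes fell and 0 rose, with a median of -2.82, near the member median of -3.02. Iigp1, an effector that disrupts the vacuole, fell by 3.37 ± 0.21 (SE; limma adjusted p = 1.62e-05). Ifi47 fell by 2.83 ± 0.21 (adjusted p = 4.36e-05) and Gm4951 fell by 3.37 ± 0.31 (adjusted p = 0.000181). Igtp fell by 2.63 (adjusted p = 0.000207), and the regulators Irgm2 and Irgm1 had differences of -2.82 (adjusted p = 0.000295) and -2.39 (adjusted p = 0.00133), which also passed. Irgq, the remaining gene, had a difference of -0.16 and did not pass (adjusted p = 0.805). Mx1, an antiviral dynamin-like GTPase and the only tested gene of its list, fell by 2.58 ± 0.33 (adjusted p = 0.00245).

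Most genes of the lists for inflammasome and pyroptosis, autophagy conjugation, prenylation and constitutive GTPases did not pass the test. These lists also hold genes that are not partners of the guanylate-binding proteins. In the inflammasome and pyroptosis list 1 of 16 fell, with a median of -0.43. That gene was Zbp1, a sensor of Z-form nucleic acids, at -3.78 ± 0.44 (SE; limma adjusted p = 0.00114). Its log2 means were 9.75 ± 0.65 (SD) in controls and 5.97 ± 0.81 (SD) in smoke lungs. The smoke values were dim, the lowest at 4.37 near the floor of 3.98, so the size of the difference is uncertain. Casp4, the mouse caspase-11 gene whose product responds to cytosolic lipopolysaccharide that guanylate-binding proteins help expose, had a difference of -1.29 ± 0.27 with all 6 smoke arrays below every control (adjusted p = 0.0645), and passed under several other settings given in the closing section. Mlkl, the effector of necroptosis, had a difference of -1.69 ± 0.49 (adjusted p = 0.256), and passed at -2.16 without smoke 5 and 6 (adjusted p = 0.0214). In the autophagy conjugation list, whose products help place these GTPases on vacuoles, 0 of 20 passed and the median was 0.12; Atg12 was at -0.38 (adjusted p = 0.583), Map1lc3a at 0.15 (0.594) and Atg4d at 0.34 (0.595). In the prenylation list, whose products make the isoprenoid, attach it or process the modified protein, 0 of 12 passed and the median was -0.0027; Ggps1 was at -0.93 (adjusted p = 0.389), Fntb at 0.40 (0.517) and Rce1 at 0.34 (0.518). Among 19 constitutive GTPases related by fold, such as dynamins and atlastins, 0 passed and the median was -0.05; Atl1 was at 0.54 (adjusted p = 0.412), Dnm1 at 0.99 (0.565) and Opa1 at 0.30 (0.588).

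**Figure D3:**
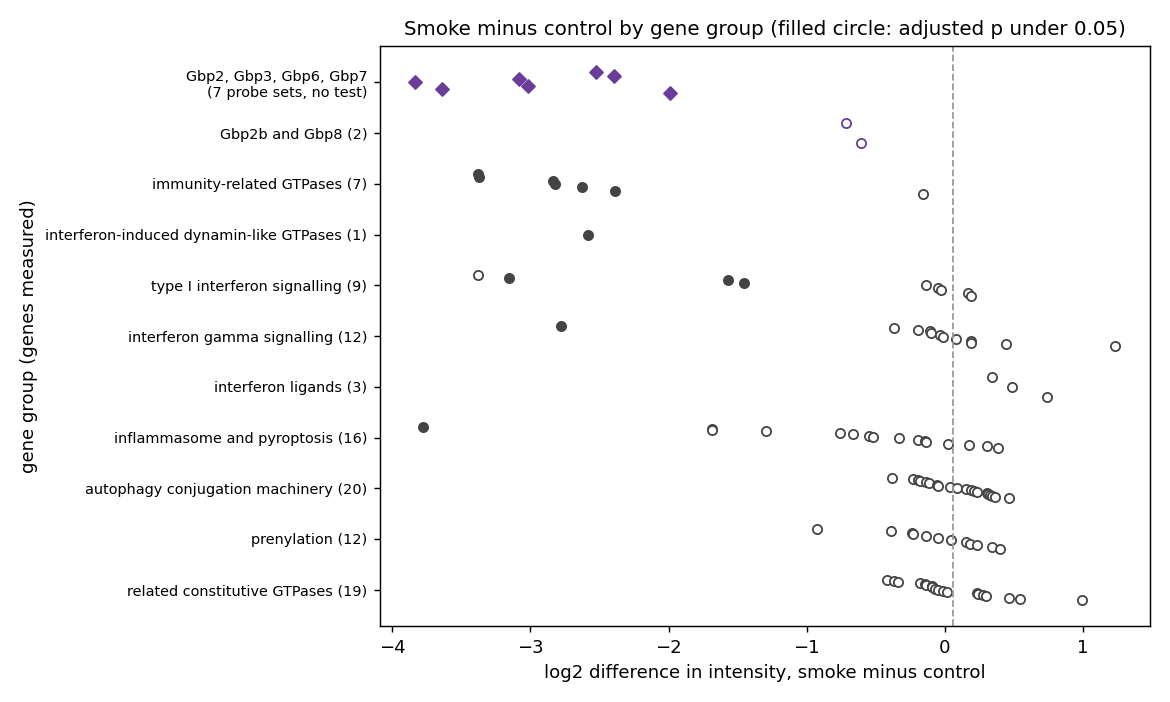
Log2 difference in intensity, smoke minus control (horizontal axis), of single genes in each gene group (vertical axis); diamonds are the 7 member probe sets, which carry no test, filled circles passed limma at an adjusted p under 0.05 and open circles did not, and the dashed line is the median of all tested genes, 0.06. The immunity-related GTPases lie with the members, apart from Irgq, while the prenylation, autophagy and constitutive GTPase groups lie around the line.

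Markers of the cells that can express these genes were counted in the same fit, and their part in the member values was not tested. Of T cell markers 0 of 9 passed, with summed log2 levels of 10.86 to 11.18 in controls and 10.84 to 11.40 in smoke lungs. Of NK and cytotoxic cell markers 0 of 8 passed, with sums of 10.08 to 11.63 and 10.20 to 10.74. Of B cell markers 0 of 11 passed, where the B cell median was 0.74 and the summed log2 level was 11.29 to 11.69 in controls and 11.84 to 12.05 in smoke lungs. Of neutrophil markers 4 of 10 fell, with a median of -1.11, and their summed level was 14.73 to 15.30 in controls and 13.04 to 14.21 in smoke lungs. The 6 neutrophil markers that did not pass ran from -2.57 for Il1r2 to 0.0012 for Ngp, with Ltf at -0.06. S100a9 fell by 2.00 (limma adjusted p = 0.00423) and S100a8 by 1.60 (adjusted p = 0.00777), both subunits of calprotectin, and S100a8 did not pass without control 2 (adjusted p = 0.0508). Of macrophage and monocyte markers 1 of 14 fell, the Fc receptor gene Fcgr1, at -1.22 (adjusted p = 0.0215), with summed levels of 15.44 to 15.84 and 15.04 to 15.57; without any 1 of the controls, or without smoke 3, it did not pass (adjusted p up to 0.138). Of dendritic cell markers 1 of 8 fell, Bst2, an interferon-induced gene, at -2.75 (adjusted p = 0.00191), while the list median was 0.13 and 3 of 8 differences were negative. The summed dendritic level, which includes Bst2, was 12.79 to 13.14 in controls and 11.44 to 12.09 in smoke lungs. Of endothelial markers 0 of 14 passed, of alveolar type 2 markers 0 of 9, of alveolar type 1 markers 0 of 8, of airway markers 0 of 9, of fibroblast markers 0 of 10, of cardiac muscle markers 0 of 10 and of fat markers 0 of 3. As a check on the tissue label, the summed level of the alveolar type 2 markers was 15.99 to 16.59 in controls and 15.47 to 16.62 in smoke lungs. Each sum adds linear intensities before the log is taken, so the brightest genes of a list weigh most. In controls these were S100a8 and S100a9 among neutrophil markers and Bst2 among dendritic markers. Between groups, the B cell, neutrophil and dendritic sums did not overlap. The B cell sums were higher in smoke lungs, and the neutrophil and dendritic sums were lower. Among single tested probe sets, 2.83% had every smoke array below every control array. The share in the higher direction, which the B cell sums took, and any share for summed lists were not counted. Nothing is therefore read from the separation of these sums. Whether cell numbers differed was not tested.

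The genes most like the member mean were sought over all 10 arrays by Pearson correlation with the mean of the 7 probe sets, after removing each group's mean. The values are a description with no p, since arrays share normalization and RNA quality. The members themselves correlated unevenly within groups. Over 21 pairs of member probe sets the median r was 0.34, from -0.53 to 0.87, and 6 pairs were negative. A gene like the mean is therefore not like each member. Of 13378 genes the 8 highest were Hmgb2 (r = 0.961), Dck (0.937), Uba3 (0.937), Epsti1 (0.927), Cryl1 (0.926), Gtf2a1 (0.923), Ascc1 (0.917) and Ccng1 (0.912). Of these 8, Epsti1 had the largest smoke difference, -1.16 (limma adjusted p = 0.0543), and 0 of the 8 passed. With the group difference left in, the highest were Trim30d (r = 0.995), Iigp1 (0.992), Trim34a (0.991) and Ifi47 (0.989), which follows from the contrast that chose the members.

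**Figure D4:**
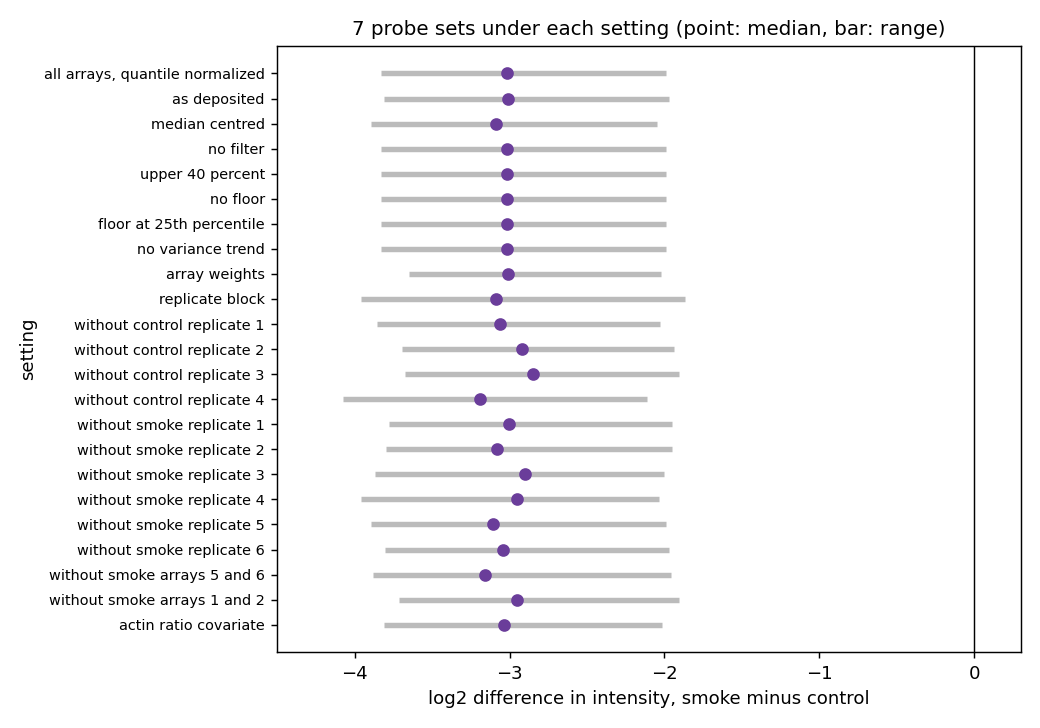
Log2 difference, smoke minus control (horizontal axis), of the 7 member probe sets under each processing setting (vertical axis); the point is the median of the 7 and the bar their range. The median lies between -3.19 and -2.85 in the settings drawn, which leave out the Xist subsets and the choice of 1 probe set a gene, and no bar reaches 0. The filter and variance-trend settings cannot move a difference, and smoke and control arrays do not overlap in any member.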

How the data were processed

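Lung RNA was extracted with Trizol and labelled as cRNA, per the labels' protocols. Each probe set has 1 linear intensity per array, as deposited by the authors. Which program summarised the probes is not given in the sources used here, and no detection calls were used.

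Intensities were put on the log2 scale after replacing the 1 value of 0 by the smallest positive value. Quantile normalization of the arrays followed, and a floor was set at 15.8, the 10th percentile of all intensities in the table. Testing covered 27022 probe sets, namely the upper 60% by mean log2 value of the 45037 that are not among the 64 Affymetrix controls. Gene symbols are from the platform annotation, where 34945 probe sets carry 1 symbol, 932 several and 9160 none here. Where a gene had several tested probe sets of 1 symbol, the brightest stood for it.

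The test was limma (version 3.58.1, R 4.3.3) with lmFit and eBayes, a variance trend and Benjamini-Hochberg adjustment over tested probe sets, two-sided at 0.05; it was tested on simulated data. Dim genes had an exact permutation test. Array pairs correlated at 0.838 to 0.961, and 0 pairs were identical; the number of arrays limits the precision. The members and lists were chosen with earlier results of these data known. Named genes were every member and other family member, up to 8 genes past the threshold per list (with the next by p to make 3), up to 2 per marker list, and the 8 most alike. Irgq, Stat2, Il1r2, Ltf, Ngp and the genes most alike without centring were named after their values were seen. Promoters matched 3 of the 6 listed members. Protein sequences were not used here. Figures were made in Python 3.11.15 (matplotlib 3.10.9).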

Additional observations from a re-analysis of the deposited data

How the results depend on the processing

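Over 22 refits the median of the 7 member probe sets lay between -3.19 and -2.85 and single members between -4.07 and -1.87. Not all refits could move these values. The filter and variance-trend settings cannot change a log2 difference, and under them and the floor settings the median stayed at -3.02. The median was -2.70 within the Xist-high arrays, -3.20 within the Xist-low arrays and -2.71 with 1 probe set a gene. With the Xist subsets single members ran from -4.12 to -1.80. There were 0 reversals, which follows from the separation of smoke and control arrays in all 7 probe sets. Of 147 member values 2 moved by more than the spread between arrays, both within the Xist-high arrays, Gbp2 1418240_at to -1.80 and Gbp3 to -2.70. The smoke arrays of that subset, 5 and 6, also had the lowest actin ratios, so these moves cannot be assigned to either property. Counts over all probe sets moved more. The 146 lower probe sets were 282 with array weights, 707 with the replicate block, 644 without smoke 5 and 6, 235 without smoke 1 and 2, 439 with the actin ratio as covariate and 86 to 160 with 1 array left out (93, 86 and 89 without controls 1, 2 and 3). The 3 higher probe sets were 9 as deposited, 5 median centred, 13 with no filter, 11 in the upper 40%, 6 with the floor at the 25th percentile, 60 with array weights, 550 with the replicate block, 559 without smoke 5 and 6, 17 without smoke 1 and 2, 200 with the actin ratio and 1 to 8 with 1 array left out (1 without control 2 or smoke 3, 5, 8 and 6 without smoke 1, 5 and 6). The lower share of calls, 98.0%, was 82.5% with array weights, 56.2% with the replicate block, 53.5% without smoke 5 and 6 and 68.7% with the actin ratio. Replicate numbers 5 and 6 occur only among smoke lungs, so the replicate block takes smoke 5 and 6 out of the contrast. That setting and the fit without smoke 5 and 6 compare the same arrays and are not separate checks. The cause of the moved counts was not tested. Higher list genes, 0 in the report, were 2 with the replicate block and 1 without smoke 5 and 6. Same-numbered arrays deviated with correlations of -0.07, 0.17, -0.06 and -0.05. The labels do not say whether the numbers pair the samples, and correlations between arrays of uneven RNA quality cannot settle it.

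Casp4 passed median centred (limma adjusted p = 0.0349), in the upper 40% (0.0499), with array weights (0.0131), with the replicate block (0.0464), without smoke 2 (0.0248), without smoke 5 and 6 (0.0482), without smoke 1 and 2 (0.0186) and with the actin ratio (0.0167). Mlkl passed with the replicate block (0.0337) and without smoke 5 and 6 (0.0214). Among marker genes that passed only in alternatives, Myh6 did so with the replicate block (0.0131), without smoke 5 and 6 (0.0244) and with the actin ratio (0.0473), and Clic5 with the replicate block (0.0244) and without smoke 5 and 6 (0.0102), while Fcrla passed in 2 and Sftpd, Tnni3, Fabp4, Calcrl and Eln in 1 each. Fcgr1 missed as deposited (0.0810), without controls 1 to 4 in turn (0.0686 to 0.138) and without smoke 3 (0.0577). S100a8 missed as deposited (0.0597), median centred (0.0880) and without control 2 (0.0508). All 12 genes of the interferon, GTPase and inflammasome lists that fell passed in every alternative that tested them. The planned comparison of member proteins was not run. Dim probe sets and the number of arrays limit what can be seen of the ligands, Gbp2b and Gbp8.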
